A study of Mus musculus with 18 samples.

Results

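The 45 genes described here encode the machinery of cell division. They comprise 26 genes of mitosis, 14 genes of DNA replication, 4 regulators of the G1/S step and the cyclin-dependent kinase inhibitor Cdkn1a. They were taken by symbol from a list made for this work and matched to the Ensembl identifiers of the deposited counts, in which they are 45 of 55401 genes. All 45 were among the 27525 genes that passed the filter on low counts. RNA was sequenced from gp38+ (podoplanin-positive) stromal cells sorted by FACS from salivary glands of wild-type Balb/c mice aged 8 to 12 weeks. There were 3 libraries per time, each taken as 1 mouse. At hour 0 the mice were uninfected. The other mice had a replication-defective adenovirus, Ad5, placed into the ducts of the submandibular glands at 100000000 to 1000000000 plaque-forming units, and glands were taken 3 hours or 1, 2, 8 or 23 days later. The model is used to induce ectopic tertiary lymphoid structures, and no group cannulated without virus was analysed here. Markers of the labelled cells were present: the 9 fibroblast markers, with Pdpn (gp38) and collagen genes among them, summed to between 11069 and 43951 counts per 1000000 (CPM) in every library. Epithelial transcripts were abundant too, chiefly through 1 gene, Mucl2. The sum of 11 epithelial markers was 29626 to 67160.1 CPM at hour 0 and 69149 to 112247 CPM at hour 3. It was 45227 to 135198 CPM at day 8 and 70129 to 221581 CPM at day 23. In every library of these groups it lay above the fibroblast sum. At day 1 it was 2388 to 3138 CPM and at day 2 it was 359 to 1207 CPM, below the fibroblast sum. Mucl2 alone averaged 47647 CPM at hour 0, 96644 CPM at hour 3, 93629 CPM at day 8 and 148360 CPM at day 23. The highest group mean of any other epithelial marker was 899 CPM, for Krt18 at day 8, below the sum of the 9 fibroblast markers. Pdpn itself averaged 60.4 CPM at hour 0, 338 CPM at day 1 and 190 CPM at day 2. It averaged 827 CPM at hour 3, 68.3 CPM at day 8 and 63.0 CPM at day 23. At day 8 all epithelial markers but Krt19 (9.82 CPM) averaged more than Pdpn.

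A dividing cell commits itself in G1, when D-type and E-type cyclins activate kinases that release E2F factors. E2F factors switch on the genes of replication: the MCM helicase, its loading factors, the sliding clamp and the enzymes that make deoxynucleotides. Later, in G2 and M phase, a second group of genes peaks, with cyclin A2, the B-type cyclins, Cdk1, mitotic kinases and the proteins of spindle and kinetochore, and many of their promoters carry a cell cycle homology region (CHR). The p53 target Cdkn1a, which encodes p21, holds cyclin-dependent kinases back. Fibroblasts of adult glands divide rarely.

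Each library held 4398234 to 15234431 counts. Levels are CPM scaled by TMM, fold changes are log2 values from edgeR, with SE for standard error, and rose, fell and changed are used of genes with an adjusted p under 0.05. Values of a group run in the order of its replicate numbers. Hour 0 holds replicates 10 to 12, hour 3 holds 4 to 6, day 1 holds 13 to 15, day 2 holds 16 to 18, day 8 holds 1 to 3 and day 23 holds 7 to 9. The libraries formed sets of 9 that the labels do not name. Those numbered 10 to 18 (hour 0, day 1 and day 2) held a background: 1781 sensory receptor genes, which fibroblasts are not known to use, gave 1.45, 0.814 and 3.29 counts per kb per 10000000 counts in these groups on average, against 0.0499 or less in the rest. A background matched on GC content amounted to a median of 41.0% of the level of a mitosis gene at hour 0, 41.3% at day 1 and 29.8% at day 2, and to 18.9%, 5.49% and 19.6% of that of a replication gene. Comparisons therefore lead with those inside a set: day 1 and day 2 with hour 0, day 2 with day 1, day 8 with hour 3, and day 23 with day 8. The background also differed among hour 0, day 1 and day 2, so comparisons of these groups are not free of it. For day 2 against day 1 the median log2 fold change of all genes was 0.78. With the GC-matched background subtracted it was 0.19, over the 21256 genes then tested. Where hour 3, day 8 or day 23 is set against hour 0, the set and the time cannot be told apart. In sorted bulk cells, fewer dividing cells and less of an RNA per dividing cell cannot be told apart. Scaling by library totals in place of TMM shifted the listed genes' log2 fold changes by a median of -1.16 for hour 3 against hour 0, 0.77 for day 8 against hour 3, 0.37 for day 2 against hour 0 and 0.27 for day 2 against day 1. It shifted them by -0.40 for day 8 and -0.45 for day 23 against hour 0. DESeq2 size factors shifted them by 0.21 for day 2 against hour 0 and 0.21 for day 2 against day 1, and by -0.13 and -0.13 for day 8 and day 23 against hour 0. Shifts of this size can turn the sign of a small fold change and can make or lose a call near the threshold. Some values that change their call or direction with the scale are given where they occur, and others are not marked. Calls and their absence refer to the TMM scale unless stated.

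Promoter sequences show how the mitosis and replication genes differ in a property that no count entered. RefSeq promoters on GRCm38.p6, from 250 bases before to 50 bases after a transcription start, were at hand for 37 of the 45 genes, 4 of them with more than 1 start. Both strands were searched for CCAAT (the NF-Y box), for the CHR letters TTTGAA or TTCGAA, and for the E2F core letters TTCGCGC or TTGGCGC or TTCCCGC, each without regard to overlap with another motif. The CHR letters stood in 18 of 22 mitosis genes and in 2 of 12 replication genes, against 19.2% of 32851 promoters. The E2F core letters stood in 4 of 22 mitosis genes and in 7 of 12 replication genes, against 8.07% of promoters. CCAAT stood in 20 of 22 and 9 of 12, against 37.4%. The wider lists of genes of the same roles, given further on, showed the same division, with CHR letters in 26 of 34 mitosis and 6 of 28 replication genes and E2F cores in 6 of 34 and 18 of 28. The match of letters is a description and not a test of binding. Below are the 190 bases before the start, 5′ to 3′ on the gene's own strand, of 5 mitosis genes, among them Psrc1, the 1 mitosis gene that rose at day 1, and of 3 replication genes. Capitals mark matches to any of the 3 motifs on either strand. The genes shown are examples and not a random sample: all 5 mitosis genes carry CHR letters and all 3 replication genes an E2F core. Of the genes searched but not shown, Mcm2, Pcna, Rrm2, Tk1 and Tyms had no E2F core. Birc5, Ccnb1, Cenpe and Nusap1 had no CHR letters. Where a gene had more than 1 start, the start with the most CHR and E2F matches was taken.

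Cdk1 (chr10:69352913-69353102, minus strand): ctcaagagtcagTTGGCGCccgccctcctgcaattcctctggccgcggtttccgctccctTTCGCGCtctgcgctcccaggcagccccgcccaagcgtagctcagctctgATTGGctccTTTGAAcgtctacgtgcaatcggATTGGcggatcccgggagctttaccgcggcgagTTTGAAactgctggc

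Top2a (chr11:99024190-99024379, minus strand): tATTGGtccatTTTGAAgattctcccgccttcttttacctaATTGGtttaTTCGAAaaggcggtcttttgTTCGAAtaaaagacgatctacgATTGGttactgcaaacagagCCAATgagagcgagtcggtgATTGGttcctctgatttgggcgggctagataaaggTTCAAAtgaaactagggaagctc

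Cdc20 (chr4:118437344-118437533, minus strand): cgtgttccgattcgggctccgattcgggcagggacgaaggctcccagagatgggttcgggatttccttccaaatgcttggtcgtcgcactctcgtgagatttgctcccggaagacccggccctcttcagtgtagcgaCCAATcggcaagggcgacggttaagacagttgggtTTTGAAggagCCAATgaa

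Kif11 (chr19:37376192-37376381, plus strand): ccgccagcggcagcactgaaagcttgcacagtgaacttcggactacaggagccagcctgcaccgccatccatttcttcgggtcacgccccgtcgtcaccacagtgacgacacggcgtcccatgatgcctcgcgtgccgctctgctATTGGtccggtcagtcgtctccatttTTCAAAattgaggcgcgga

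Psrc1 (chr3:108383648-108383837, plus strand): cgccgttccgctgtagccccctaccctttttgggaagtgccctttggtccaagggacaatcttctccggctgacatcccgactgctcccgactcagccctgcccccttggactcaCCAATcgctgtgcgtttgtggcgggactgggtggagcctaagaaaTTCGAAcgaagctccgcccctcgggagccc

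Mcm5 (chr8:75109319-75109508, plus strand): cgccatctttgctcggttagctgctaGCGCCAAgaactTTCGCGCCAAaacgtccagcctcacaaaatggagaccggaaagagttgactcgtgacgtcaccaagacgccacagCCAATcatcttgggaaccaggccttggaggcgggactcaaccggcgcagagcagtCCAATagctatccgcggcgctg

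Mcm6 (chr1:128359706-128359895, minus strand): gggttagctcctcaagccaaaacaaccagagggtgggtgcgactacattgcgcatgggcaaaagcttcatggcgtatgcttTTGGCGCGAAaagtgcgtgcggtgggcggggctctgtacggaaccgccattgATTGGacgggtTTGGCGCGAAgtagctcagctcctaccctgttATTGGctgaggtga

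Rrm1 (chr7:102441505-102441694, plus strand): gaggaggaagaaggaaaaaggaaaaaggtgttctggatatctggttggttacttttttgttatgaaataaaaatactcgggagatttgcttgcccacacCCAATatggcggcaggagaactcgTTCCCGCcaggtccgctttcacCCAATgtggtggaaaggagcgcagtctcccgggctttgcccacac

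Over the 6 groups, 44 of the 45 genes changed (all 26 mitosis genes, 13 of 14 replication genes, all 4 G1/S regulators and Cdkn1a), the exception being Tyms at an adjusted p of 0.244. That share is read beside the background: 83.9% of all tested genes changed. The order in time set the roles apart. The 26 mitosis genes together stood at 132 ± 31.2 CPM (mean ± SD, n = 3) at hour 0, 77.3 ± 8.12 CPM at day 1 and 322 ± 25.1 CPM at day 2. In the other set of libraries they stood at 38.6 ± 2.62 CPM at hour 3, 526 ± 123 CPM at day 8 and 69.3 ± 12.3 CPM at day 23. The summed level was thus lowest at hour 3, low at day 1, and high at day 2 and day 8, with no overlap between the libraries of day 2 and those of hour 0 or day 1. The 14 replication genes together stood at 165 ± 13.0 CPM at hour 0, 285 ± 81.5 CPM at day 1 and 235 ± 15.4 CPM at day 2, and at 309 ± 12.1 CPM at hour 3, 367 ± 34.2 CPM at day 8 and 181 ± 24.6 CPM at day 23. Replication genes already stood above hour 0 in all 3 libraries of day 1, though replicate 14, at 191 CPM, lay well below replicates 13 and 15. With library totals as the scale, the replication sum averaged 196 CPM at hour 0, 362 CPM at day 1 and 361 CPM at day 2. In the other set it then averaged 164 CPM at hour 3, 333 CPM at day 8 and 160 CPM at day 23. On that scale hour 3 thus lay below hour 0, and day 8 was not the highest. Mcm6 alone made up 118 CPM of the TMM-scaled sum of 309 CPM at hour 3. The ratio of the mitosis sum to the replication sum, which does not depend on the scaling of libraries, was 0.799 at hour 0, 0.296 at day 1 and 1.37 at day 2. In the other set it was 0.125 in the libraries of hour 3, 1.42 in those of day 8 and 0.391 in those of day 23. By the mean of each group on the TMM scale, 19 mitosis genes were highest at day 8, 6 at day 2 and 1, Psrc1, at day 1. Of the replication genes, 8 were highest at day 8, 3 at hour 3 and 1 each at day 1, day 2 and day 23.

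**Figure D1:**
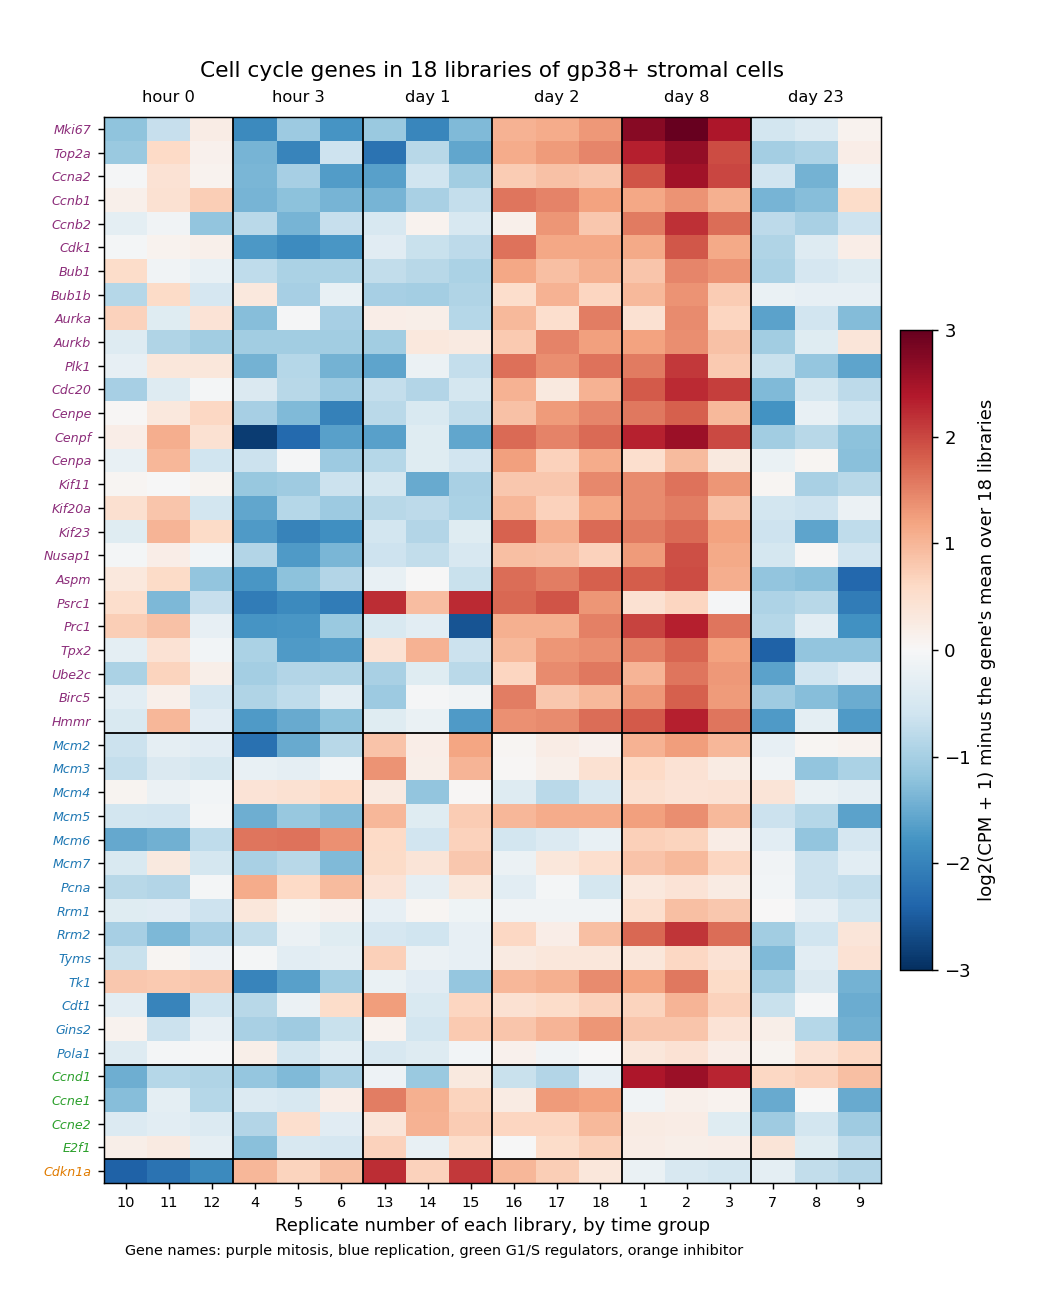
Level of the 45 genes (rows, by role) in the 18 libraries (columns, by time group and replicate number), as log2(CPM + 1) less the mean of each gene over the 18 libraries. Most mitosis genes are high in all libraries of day 2 and day 8, whereas Mcm6, Pcna and Cdkn1a are already high at hour 3.

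**Figure D2:**
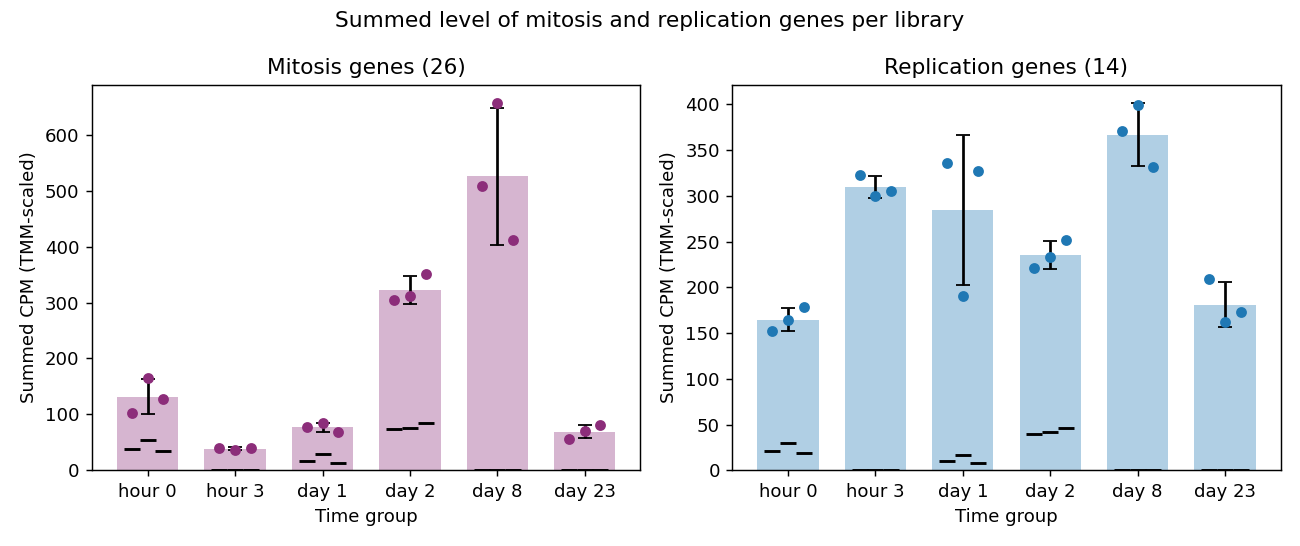
Summed CPM of the 26 mitosis genes and the 14 replication genes by time group, with each library as a point, the mean as a bar, the SD as an error bar (n = 3) and the estimated GC-matched background of each library as a black dash. The mitosis sum is 322 CPM at day 2 and 526 CPM at day 8 against 38.6 CPM at hour 3, a wider range than that of the replication sum, from 165 to 367 CPM.

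The first comparison is day 1 with uninfected stroma. Of the 26 mitosis genes, 11 fell, where 12.8% of all genes did, and 1 (Psrc1) rose, where 9.67% of all genes did. Their median log2 fold change was -1.19, against -0.41 over all genes. With the GC-matched background subtracted, 8 fell, against 14.4% of all genes, and 2 rose, against 12.5%. The number of genes that fell depended on the fit: over all 45 it was 12, against 4 with only the libraries of day 1 and hour 0 in the fit and 7 without replicate 15. Between day 1 and day 2 most mitosis genes rose. Of the 26, 21 rose, against 12.0% of all genes, and 0 fell, against 11.2%. Their median was 2.38, against 0.78 over all genes, and after the subtraction 19 rose, against 8.50% of all genes. Day 2 also stood above uninfected stroma: 11 of the 26 rose, against 5.12% of all genes, none fell, against 9.63%, and the median was 1.31, against 0.29 over all genes. The count for day 2 against hour 0 depended on single libraries. Over all 45 genes 19 rose, and leaving out replicate 10 left 8, replicate 12 left 9, replicate 17 left 9 and replicate 18 left 8, while DESeq2 called 30. The shares of all genes called in these fits, and in the day 1 fits on fewer libraries, are not given here. A general gain or loss of calls therefore cannot be told apart.

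The widest change of the mitosis genes lay between hour 3 and day 8. Of the 26, 25 rose, against 16.5% of all genes, and none fell, against 14.1%. Cenpa, the centromeric histone, was the exception, at 2.01 (SE 0.87, adjusted p = 0.0852). The median of the 26 was 4.38, against 0.00 over all genes. From day 8 to day 23, 23 of the 26 fell, against 3.08% of all genes, and none rose, against 2.25%. The median was -3.14, against 0.00, and after the subtraction 17 fell, against 2.08% of all genes. The background was estimated from genes chosen as nearly absent at both times. It was a median of 0.267% of the level of a mitosis gene at day 8 and 2.13% at day 23, so this count cannot check for background.

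Across the sets, where the set and the time cannot be told apart, 19 fell at hour 3 against hour 0, where 43.1% of all genes did, and none rose, where 16.9% did. At day 8, 20 rose, where 11.2% of all genes did, and none fell, where 32.7% did. At day 23, 9 fell, where 25.4% of all genes did, and 2 after the subtraction, where 4.41% did. With library totals as the scale, all 26 mitosis genes fell at hour 3, where 70.8% of all genes did, and 17 at day 23, where 39.7% did. In each comparison in which edgeR called no mitosis gene in a direction, the count in that direction was also 0 at an unadjusted p under 0.05 and 0 with DESeq2.

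Mki67, which encodes the proliferation antigen Ki-67 that coats mitotic chromosomes (chr7:135689784-135716361, minus strand), stood at 8.32, 12.3 and 24.0 CPM at hour 0, 8.86, 4.53 and 7.55 CPM at day 1 and 43.1, 45.8 and 51.7 CPM at day 2. Mki67 in the other set stood at 4.69, 9.09 and 5.28 CPM at hour 3, 142, 187 and 114 CPM at day 8 and 13.6, 15.3 and 22 CPM at day 23. Every day 2 and day 8 library lay above every other library, and day 8 was highest, while hour 0 and day 1 overlapped. For Mki67 the log2 fold changes were -1.10 (SE 0.31, adjusted p = 0.00889) for day 1 against hour 0 and 2.74 (SE 0.31, adjusted p = 4.54e-07) for day 2 against day 1. Those of Mki67 in the other set were 4.54 (SE 0.34, adjusted p = 7.98e-12) for day 8 against hour 3 and -3.14 (SE 0.31, adjusted p = 9.49e-07) for day 23 against day 8. Mki67 did not pass for day 1 against hour 0 without replicate 12 (-0.56). Top2a, the topoisomerase that untangles chromosomes before they separate (chr11:98992943-99024189, minus strand), stood at 5.13, 19.1 and 13.6 CPM at hour 0, 1.85, 6.53 and 3.51 CPM at day 1 and 27.6, 31.4 and 35.8 CPM at day 2. Top2a in the other set stood at 4.04, 2.37 and 7.59 CPM at hour 3, 66.0, 81.2 and 50.5 CPM at day 8 and 5.53, 6.02 and 14.2 CPM at day 23. As for Mki67, no day 2 or day 8 library overlapped with the rest, and day 8 was highest. For Top2a the log2 fold changes were -1.67 (SE 0.42, adjusted p = 0.00394) for day 1 against hour 0 and 3.00 (SE 0.43, adjusted p = 1.4e-05) for day 2 against day 1. Those of Top2a in the other set were 3.81 (SE 0.45, adjusted p = 5.46e-08) for day 8 against hour 3 and -2.99 (SE 0.43, adjusted p = 9.14e-05) for day 23 against day 8. Both also stood higher at day 2 than at hour 0, Mki67 by 1.65 (SE 0.30, adjusted p = 0.000123) and Top2a by 1.33 (SE 0.40, adjusted p = 0.0199). For Top2a that call did not pass without any 1 of replicates 10 and 18 (0.95 to 1.22).

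Cdk1, the kinase that drives entry into mitosis (chr10:69335146-69352938, minus strand), stood at 3.00, 3.51 and 3.64 CPM at hour 0, 2.34, 1.65 and 1.42 CPM at day 1 and 11.9, 8.35 and 8.35 CPM at day 2. Cdk1 in the other set stood at 0.261, 0.132 and 0.257 CPM at hour 3, 8.17, 14.2 and 8.14 CPM at day 8 and 1.25, 2.18 and 3.79 CPM at day 23. It was lowest in the 3 libraries of hour 3, and the libraries of day 2 and day 8 overlapped. For Cdk1 the log2 fold changes were -0.90 (SE 0.44, adjusted p = 0.149) for day 1 against hour 0, 1.49 (SE 0.43, adjusted p = 0.0156) for day 2 against hour 0 and 2.39 (SE 0.44, adjusted p = 0.00033) for day 2 against day 1. Those of Cdk1 in the other set were 5.47 (SE 0.59, adjusted p = 1.28e-08) for day 8 against hour 3 and -2.11 (SE 0.45, adjusted p = 0.00471) for day 23 against day 8. Of these, the rise at day 2 against hour 0 did not pass without any 1 of replicates 10 and 16 (1.29 to 1.40), nor the fall at day 23 without replicate 2 (-1.79). Ccna2, the cyclin A2 of S phase and G2 (chr3:36564865-36572150, minus strand), stood at 2.52, 3.85 and 2.90 CPM at hour 0, 0.161, 1.39 and 0.748 CPM at day 1 and 5.11, 5.61 and 5.32 CPM at day 2. Ccna2 in the other set stood at 0.391, 0.791 and 0.129 CPM at hour 3, 12.3, 19.6 and 13.4 CPM at day 8 and 1.43, 0.349 and 2.37 CPM at day 23. The libraries of day 1 lay below those of hour 0, and those of day 8 above all others. For Ccna2 the log2 fold changes were -2.0 (SE 0.59, adjusted p = 0.0136) for day 1 against hour 0 and 2.79 (SE 0.59, adjusted p = 0.00127) for day 2 against day 1. Those of Ccna2 in the other set were 5.08 (SE 0.67, adjusted p = 4.95e-07) for day 8 against hour 3 and -3.60 (SE 0.61, adjusted p = 0.00055) for day 23 against day 8. Ccna2 did not pass for day 1 against hour 0 without replicate 13 (-1.52).

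Ccnb1, the cyclin B1 that partners Cdk1 (chr13:100778650-100786570, minus strand), stood at 1.93, 2.61 and 3.39 CPM at hour 0, 0, 0.348 and 0.598 CPM at day 1 and 7.06, 6.44 and 5.11 CPM at day 2. Ccnb1 in the other set stood at 0, 0.132 and 0 CPM at hour 3, 4.92, 5.76 and 4.57 CPM at day 8 and 0, 0.0873 and 2.84 CPM at day 23. Unlike those of Mki67, its libraries of day 8 overlapped with those of day 2. For Ccnb1 the log2 fold changes were -3.01 (SE 0.91, adjusted p = 0.0155) for day 1 against hour 0 and 4.23 (SE 0.93, adjusted p = 0.00164) for day 2 against day 1. That of Ccnb1 in the other set was -2.62 (SE 0.90, adjusted p = 0.0906) for day 23 against day 8. With 1 Ccnb1 count in all at hour 3, the ratio of day 8 to hour 3 was 117 (95% counting interval 20.7 to 4643), with an adjusted p of 0.000109. Ccnb1 did not pass for day 1 against hour 0 without replicate 13 (-2.44). The GC-matched background was 163% of the Ccnb1 counts at day 1, so that level cannot be told from background. The second B-type cyclin, Ccnb2, stood at 1.16, 1.47 and 0.165 CPM at hour 0, 0.886, 1.83 and 0.897 CPM at day 1 and 1.95, 5.61 and 3.65 CPM at day 2, and at 0.521, 0 and 0.643 CPM at hour 3, 6.83, 11.0 and 7.44 CPM at day 8 and 0.535, 0.349 and 0.710 CPM at day 23. Hour 0 and day 1 overlapped, and the libraries of day 8 were the highest. For Ccnb2 the log2 fold changes were 0.39 (SE 0.71, adjusted p = 0.749) for day 1 against hour 0 and 1.64 (SE 0.68, adjusted p = 0.0794) for day 2 against day 1. Those of Ccnb2 in the other set were 4.39 (SE 0.80, adjusted p = 5.98e-05) for day 8 against hour 3 and -4.05 (SE 0.80, adjusted p = 0.00242) for day 23 against day 8.

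Plk1, a polo-like kinase of spindle and centrosome (chr7:122159439-122169873, plus strand), stood at 1.55, 2.83 and 2.81 CPM at hour 0, 0, 1.65 and 0.822 CPM at day 1 and 8.41, 6.92 and 8.24 CPM at day 2. Plk1 in the other set stood at 0.130, 0.659 and 0.129 CPM at hour 3, 7.83, 12.1 and 4.19 CPM at day 8 and 0.892, 0.349 and 0 CPM at day 23. Libraries of day 2 and day 8 were all above those of the other times. For Plk1 the log2 fold changes were -1.54 (SE 0.73, adjusted p = 0.139) for day 1 against hour 0 and 3.24 (SE 0.74, adjusted p = 0.0025) for day 2 against day 1. Those of Plk1 in the other set were 4.66 (SE 0.86, adjusted p = 7.44e-05) for day 8 against hour 3 and -4.20 (SE 0.85, adjusted p = 0.00288) for day 23 against day 8. Aurka, a kinase of the centrosome and spindle poles (chr2:172356190-172370535, minus strand), stood at 3.87, 1.36 and 3.06 CPM at hour 0, 2.50, 2.44 and 0.673 CPM at day 1 and 4.96, 3.34 and 7.82 CPM at day 2. Aurka in the other set stood at 0.261, 1.98 and 0.515 CPM at hour 3, 3.17, 7.06 and 3.72 CPM at day 8 and 0, 1.05 and 0.237 CPM at day 23. Its libraries spread widely within groups, and hour 0 overlapped with both day 1 and day 2. For Aurka the log2 fold changes were -0.57 (SE 0.71, adjusted p = 0.616) for day 1 against hour 0 and 1.53 (SE 0.71, adjusted p = 0.113) for day 2 against day 1. Those of Aurka in the other set were 2.33 (SE 0.77, adjusted p = 0.019) for day 8 against hour 3 and -3.14 (SE 0.82, adjusted p = 0.0208) for day 23 against day 8. Aurka did not pass for day 8 against hour 3 without any 1 of replicates 2, 4 and 6 (1.84 to 2.05). Aurka did not pass for day 23 against day 8 without any 1 of replicates 2, 7 and 9 (-2.90 to -2.64).

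Aurkb, the kinase of the chromosomal passenger complex, had no count in any library of hour 3 and stood at 3.75, 4.46 and 2.79 CPM at day 8, which was at least 28.0-fold higher against a floor of 3 counts over the group. At hour 0 it stood at 0.580, 0.113 and 0 CPM and at day 2 at 2.55, 4.77 and 3.86 CPM, a log2 fold change of 3.96 (SE 1.14, adjusted p = 0.0165) that did not pass without any 1 of replicates 11, 12 and 17 (3.34 to 3.73). The GC-matched background was 532% of the Aurkb counts at hour 0, so that level cannot be told from background. Bub1, a kinase of the spindle checkpoint, stood at 1.84, 0.793 and 0.662 CPM at hour 0, 0.161, 0.0871 and 0 CPM at day 1 and 3.31, 2.62 and 3.03 CPM at day 2, and at 0.130, 0 and 0 CPM at hour 3, 2.42, 4.30 and 3.88 CPM at day 8 and 0, 0.349 and 0.473 CPM at day 23. Its libraries of day 1 all lay below those of hour 0, and those of day 2 above both. With 3 Bub1 counts in all at day 1, the ratio of hour 0 to day 1 was 13.5 (95% counting interval 4.25 to 68.8), with an adjusted p of 0.0101. With 3 Bub1 counts in all at day 1, the ratio of day 2 to day 1 was 36.8 (95% counting interval 12.1 to 183), with an adjusted p of 0.000866. With 1 Bub1 count in all at hour 3, the ratio of day 8 to hour 3 was 81.7 (95% counting interval 14.4 to 3250.1), with an adjusted p of 0.000141. The GC-matched background was 460% of the Bub1 counts at day 1, so that level cannot be told from background. Bub1 did not pass for day 1 against hour 0 without any 1 of replicates 10 and 15 (-3.01 to -2.97). Its relative Bub1b gave 1.92 (SE 0.36, adjusted p = 0.000346) for day 2 against day 1, 1.35 (SE 0.35, adjusted p = 0.00307) for day 8 against hour 3 and -1.37 (SE 0.35, adjusted p = 0.0191) for day 23 against day 8. Bub1b did not pass for day 23 against day 8 without replicate 2 (-1.20).

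Cdc20, which activates the anaphase-promoting complex (chr4:118432901-118437352, minus strand), stood at 0.484, 1.25 and 1.82 CPM at hour 0, 0.805, 0.609 and 1.05 CPM at day 1 and 5.11, 2.62 and 5.11 CPM at day 2. Cdc20 in the other set stood at 1.17, 0.659 and 0.386 CPM at hour 3, 9.5, 12.9 and 11.5 CPM at day 8 and 0.178, 1.05 and 0.710 CPM at day 23. Hour 0 and day 1 overlapped, and the libraries of day 8 were the highest of the 18. For Cdc20 the log2 fold changes were -0.52 (SE 0.60, adjusted p = 0.582) for day 1 against hour 0, 1.83 (SE 0.57, adjusted p = 0.0275) for day 2 against hour 0 and 2.36 (SE 0.59, adjusted p = 0.00487) for day 2 against day 1. Those of Cdc20 in the other set were 3.91 (SE 0.63, adjusted p = 9.4e-06) for day 8 against hour 3 and -4.01 (SE 0.64, adjusted p = 0.000291) for day 23 against day 8. Cdc20 did not pass for day 2 against hour 0 without any 1 of replicates 10, 11, 16 and 18 (1.45 to 1.85). Birc5, the survivin of the passenger complex (chr11:117849251-117855743, plus strand), stood at 1.26, 2.15 and 0.993 CPM at hour 0, 0.322, 1.74 and 1.64 CPM at day 1 and 7.21, 3.94 and 4.59 CPM at day 2. Birc5 in the other set stood at 0.521, 0.659 and 1.29 CPM at hour 3, 5.92, 8.77 and 5.89 CPM at day 8 and 0.357, 0.175 and 0 CPM at day 23. All 3 libraries of day 23 lay below every library of day 8. For Birc5 the log2 fold changes were -0.23 (SE 0.63, adjusted p = 0.835) for day 1 against hour 0, 1.84 (SE 0.62, adjusted p = 0.0444) for day 2 against hour 0 and 2.07 (SE 0.62, adjusted p = 0.0183) for day 2 against day 1. Those of Birc5 in the other set were 3.04 (SE 0.67, adjusted p = 0.000568) for day 8 against hour 3 and -5.10 (SE 0.82, adjusted p = 0.000311) for day 23 against day 8. The call for day 2 against hour 0 did not pass without any 1 of replicates 10, 12, 16, 17 and 18 (1.53 to 2.0), nor that against day 1 without any 1 of replicates 13 and 16 (1.61 to 1.77), and after the background subtraction the latter was 2.47 (adjusted p = 0.0849). Ube2c, the ubiquitin-conjugating enzyme that works with Cdc20, gave 2.82 (SE 0.69, adjusted p = 0.00419) for day 2 against day 1, 3.44 (SE 0.74, adjusted p = 0.000435) for day 8 against hour 3 and -3.02 (SE 0.73, adjusted p = 0.0119) for day 23 against day 8, and its call for day 23 did not pass without replicate 2 (-2.84).

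Genes of the spindle and kinetochore come next. Cenpf, a kinetochore protein, stood at 9.38, 18.2 and 11.5 CPM at hour 0, 1.93, 6.01 and 2.09 CPM at day 1 and 28.2, 24.3 and 28.3 CPM at day 2, and at 0.261, 0.791 and 1.93 CPM at hour 3, 43.8, 52.9 and 34.8 CPM at day 8 and 3.39, 4.10 and 2.84 CPM at day 23. It was lower in each library of day 1 than in any of hour 0, and highest at day 8. For Cenpf the log2 fold changes were -1.97 (SE 0.38, adjusted p = 0.000194) for day 1 against hour 0 and 3.02 (SE 0.38, adjusted p = 2.57e-06) for day 2 against day 1. Those of Cenpf in the other set were 5.44 (SE 0.46, adjusted p = 1.22e-10) for day 8 against hour 3 and -3.63 (SE 0.40, adjusted p = 4.22e-06) for day 23 against day 8. Cenpe, the kinetochore motor, gave -1.13 (SE 0.35, adjusted p = 0.0173) for day 1 against hour 0, 2.05 (SE 0.35, adjusted p = 0.000125) for day 2 against day 1, 3.23 (SE 0.38, adjusted p = 6.35e-08) for day 8 against hour 3 and -2.37 (SE 0.36, adjusted p = 0.000173) for day 23 against day 8. Cenpe did not pass for day 1 against hour 0 without any 1 of replicates 12, 13 and 15 (-1.09 to -0.95). Hmmr, which encodes a microtubule-binding protein of the spindle, gave -1.31 (SE 0.79, adjusted p = 0.26) for day 1 against hour 0, 2.87 (SE 0.80, adjusted p = 0.011) for day 2 against day 1, 5.97 (SE 1.04, adjusted p = 3.28e-05) for day 8 against hour 3 and -3.98 (SE 0.87, adjusted p = 0.00545) for day 23 against day 8. Its libraries of hour 0 and day 1 overlapped, and those of day 2 were all higher.

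Aspm, a spindle pole protein, stood at 5.42, 6.68 and 1.24 CPM at hour 0, 3.38, 4.09 and 2.24 CPM at day 1 and 15.3, 14.0 and 16.8 CPM at day 2, and at 0.521, 1.19 and 1.80 CPM at hour 3, 17.1, 18.9 and 9.84 CPM at day 8 and 1.25, 1.13 and 0 CPM at day 23. Its libraries of day 2 and day 8 overlapped, and it was at its lowest at day 23 and hour 3. For Aspm the log2 fold changes were 1.80 (SE 0.49, adjusted p = 0.0102) for day 2 against hour 0 and 2.25 (SE 0.50, adjusted p = 0.00186) for day 2 against day 1. Those of Aspm in the other set were 3.69 (SE 0.56, adjusted p = 4.77e-06) for day 8 against hour 3 and -4.09 (SE 0.59, adjusted p = 9.87e-05) for day 23 against day 8. The rise at day 2 against hour 0 did not pass without replicate 12 (1.34). Prc1, a bundler of the central spindle, fell by 1.69 on the log2 scale at day 1 (adjusted p = 0.0413), a call that did not pass without any 1 of replicates 10, 11 and 15 (-1.55 to -1.09). Tpx2, an activator of Aurka, gave 0.42 (SE 0.38, adjusted p = 0.479) at day 1, with its libraries overlapping those of hour 0, and 1.29 (SE 0.38, adjusted p = 0.0195) at day 2 against hour 0, a call that did not pass without any 1 of replicates 10, 12, 17 and 18 (1.12 to 1.23).

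The motors Kif11, Kif20a and Kif23 each fell at day 1 and rose at day 2 and day 8. Kif11, the motor that pushes the spindle poles apart, rose by 2.37 (SE 0.39, adjusted p = 6.86e-05) between day 1 and day 2 and by 2.78 (SE 0.40, adjusted p = 1.66e-06) between hour 3 and day 8. Kif20a rose by 2.23 (SE 0.42, adjusted p = 0.00035) and 3.04 (SE 0.44, adjusted p = 2.27e-06) in the same comparisons. Kif23, a motor of the central spindle, rose by 2.58 (SE 0.46, adjusted p = 0.000204) and 5.44 (SE 0.61, adjusted p = 2.42e-08), and its hour 3 libraries, at 0.391, 0.132 and 0.257 CPM, all lay far below those of hour 0, at 2.52, 8.16 and 5.79 CPM. At day 1 all 3 fell, with log2 fold changes of -1.25 (SE 0.38, adjusted p = 0.0171) for Kif11, -1.56 (SE 0.41, adjusted p = 0.00591) for Kif20a and -1.41 (SE 0.45, adjusted p = 0.0234) for Kif23. None of these falls passed in every fit that left out a library: Kif11 failed without any 1 of replicates 14 and 15 (-1.23 to -0.96), Kif20a without replicate 11 (-1.20) and Kif23 without any 1 of replicates 11, 12, 13 and 14 (-1.43 to -1.02). Nusap1, a spindle-bundling protein, gave -1.0 (SE 0.58, adjusted p = 0.234) for day 1 against hour 0, 2.05 (SE 0.58, adjusted p = 0.012) for day 2 against day 1, 4.51 (SE 0.69, adjusted p = 4.52e-06) for day 8 against hour 3 and -2.29 (SE 0.58, adjusted p = 0.0172) for day 23 against day 8. Nusap1 did not pass for day 23 against day 8 without any 1 of replicates 2, 7 and 9 (-2.14 to -2.0). Cenpa gave 2.68 (SE 0.86, adjusted p = 0.0255) for day 2 against day 1, which did not pass without any 1 of replicates 13, 15, 16 and 18 (2.38 to 2.68). The GC-matched background was 167% of the Cenpa counts at day 1 and 103% at day 2, so neither level can be told from background. Of Kif20a, 29.3% of the exon length overlaps another gene, and the share is 22.8% for Ube2c, 12.5% for Ccna2 and 11.1% for Prc1. The strand setting of the counting is not given in the sources used here, so reads in those stretches may belong to either gene.

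Psrc1, which encodes a microtubule-associated protein and is also known as a p53 target (chr3:108383839-108388231, plus strand), was low in uninfected stroma and higher at day 1. It stood at 5.13, 0.680 and 1.65 CPM at hour 0, 18.7, 7.14 and 19.1 CPM at day 1 and 13.1, 14.7 and 9.70 CPM at day 2. Psrc1 in the other set stood at 0, 0.132 and 0 CPM at hour 3, 4.83, 5.68 and 3.18 CPM at day 8 and 1.25, 1.40 and 0 CPM at day 23. All libraries of day 1 and day 2 lay above those of hour 0, and hour 3 was nearly empty. For Psrc1 the log2 fold changes were 2.58 (SE 0.56, adjusted p = 0.000836) for day 1 against hour 0, 2.31 (SE 0.56, adjusted p = 0.00364) for day 2 against hour 0 and -0.27 (SE 0.52, adjusted p = 0.704) for day 2 against day 1. That of Psrc1 in the other set was -2.18 (SE 0.63, adjusted p = 0.0397) for day 23 against day 8. With 1 Psrc1 count in all at hour 3, the ratio of day 8 to hour 3 was 105 (95% counting interval 18.5 to 4154), with an adjusted p of 6.81e-06. Psrc1 did not pass for day 23 against day 8 without any 1 of replicates 1, 2 and 9 (-2.15 to -1.77). It was the only mitosis gene that rose at day 1 and 1 of 5 that had no call between day 1 and day 2.

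**Figure D3:**
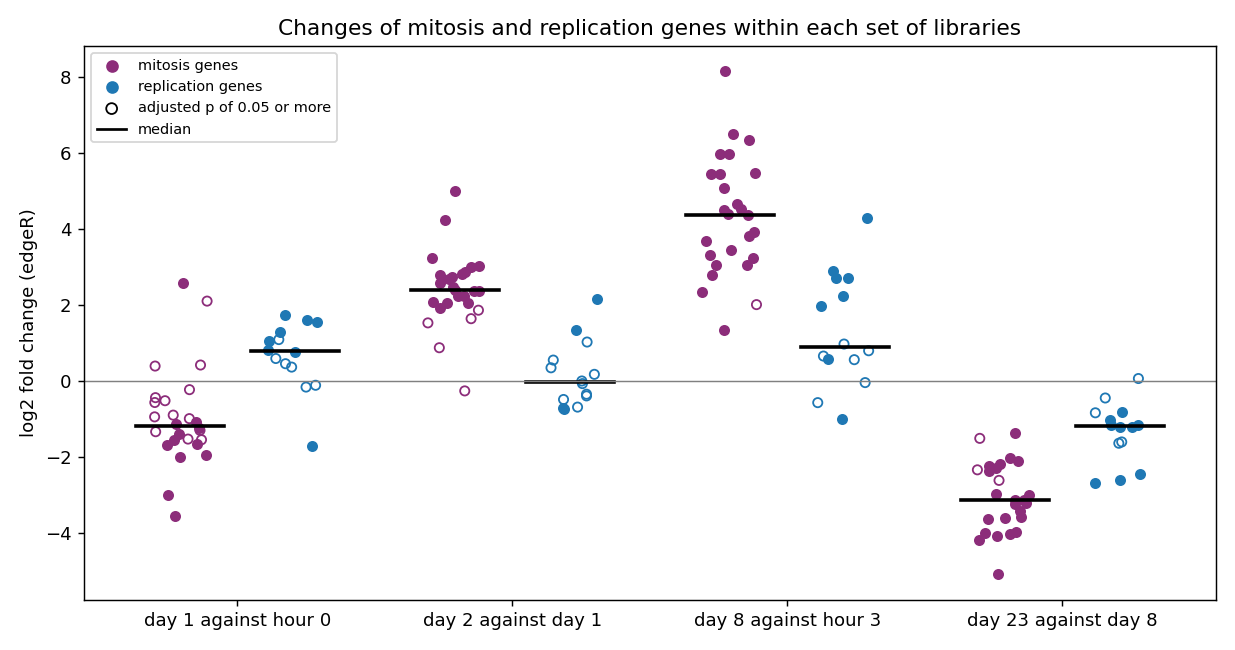
log2 fold changes of the 26 mitosis genes and the 14 replication genes in 4 comparisons within a set of libraries, with a filled point for a gene with adjusted p under 0.05, an open point for the others and a black line for the median. The medians lie on opposite sides of 0 at day 1 (-1.19 and 0.78), and at 4.38 and 0.88 at day 8 against hour 3.

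Replication genes were compared in the same way. Of the 14, 7 rose at day 1, against 9.67% of all genes, and 1 (Tk1) fell, against 12.8%. Their median log2 fold change was 0.78, against -0.41 over all genes, and 8 rose once the background was subtracted. Between day 1 and day 2, 2 (Rrm2 and Tk1) rose, against 12.0% of all genes, and 2 (Mcm3 and Mcm6) fell, against 11.2%, around a median of -0.04, where that of all genes was 0.78. Neither fall kept its call with library totals as the scale, at -0.44 (adjusted p = 0.221) for Mcm3 and -0.46 (adjusted p = 0.211) for Mcm6. Against hour 0, 6 of 14 rose at day 2, against 5.12% of all genes, and none fell, against 9.63%. Between hour 3 and day 8, 7 rose, against 16.5% of all genes, and 1 (Mcm6) fell, against 14.1%, around a median of 0.88. From day 8 to day 23, 9 fell, against 3.08% of all genes, and none rose, against 2.25%, around a median of -1.19. For the replication genes the counts of none in edgeR were likewise 0 at an unadjusted p under 0.05 and 0 with DESeq2 in these comparisons. Across the sets, 3 rose at hour 3 against hour 0, where 16.9% of all genes did, and 4 fell, where 43.1% did. At day 8 against hour 0, 9 rose, where 11.2% of all genes did. By day 23, 1 of 14 had fallen, where 25.4% of all genes had. The shares at hour 3 and day 23 lie near or below those of all genes. The hour 3 split turned on the scale: with library totals 1 rose, against 5.41% of all genes, and 10 fell, against 70.8%.

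The MCM proteins form the helicase that opens DNA at origins. Mcm2 (chr6:88883474-88898780, minus strand) stood at 10.3, 13.6 and 12.9 CPM at hour 0, 31.1, 19.3 and 38.9 CPM at day 1 and 17.4, 19.4 and 18.4 CPM at day 2. Mcm2 in the other set stood at 2.74, 5.14 and 8.88 CPM at hour 3, 35.1, 40.8 and 34.1 CPM at day 8 and 13.9, 17.4 and 18.0 CPM at day 23. Each library of day 1 was above each of hour 0, and the hour 3 libraries were the lowest. For Mcm2 the log2 fold changes were 1.28 (SE 0.28, adjusted p = 0.000962) for day 1 against hour 0 and -0.69 (SE 0.28, adjusted p = 0.0692) for day 2 against day 1. Those of Mcm2 in the other set were 2.71 (SE 0.31, adjusted p = 2.88e-08) for day 8 against hour 3 and -1.16 (SE 0.28, adjusted p = 0.0134) for day 23 against day 8. Mcm2 did not pass for day 23 against day 8 without replicate 2 (-1.08). Mcm5 (chr8:75109569-75128439, plus strand) stood at 5.03, 4.87 and 7.45 CPM at hour 0, 16.4, 5.83 and 13.8 CPM at day 1 and 16.7, 18.1 and 17.9 CPM at day 2. Mcm5 in the other set stood at 2.22, 3.03 and 2.57 CPM at hour 3, 19.7, 22 and 16.4 CPM at day 8 and 4.64, 3.84 and 1.89 CPM at day 23. At day 1 replicate 14 lay within the range of hour 0, and all libraries of day 2 and day 8 lay above that range. For Mcm5 the log2 fold changes were 1.05 (SE 0.34, adjusted p = 0.0228) for day 1 against hour 0, 1.6 (SE 0.34, adjusted p = 0.000941) for day 2 against hour 0 and 0.55 (SE 0.33, adjusted p = 0.209) for day 2 against day 1. Those of Mcm5 in the other set were 2.89 (SE 0.37, adjusted p = 2.74e-07) for day 8 against hour 3 and -2.44 (SE 0.36, adjusted p = 0.000124) for day 23 against day 8. Mcm5 did not pass for day 1 against hour 0 without any 1 of replicates 10, 11, 13 and 15 (0.76 to 0.96).

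Mcm6 (chr1:128331590-128359664, minus strand) had a course of its own. It stood at 13.2, 14.2 and 23.2 CPM at hour 0, 61.1, 26.6 and 64.9 CPM at day 1 and 27.0, 30.1 and 34.3 CPM at day 2. Mcm6 in the other set stood at 124, 125 and 105 CPM at hour 3, 66.0, 64.3 and 46.7 CPM at day 8 and 31.9, 17.2 and 27.7 CPM at day 23. On the TMM scale the hour 3 libraries were the highest of the 18, and those of day 1 all lay above hour 0. TMM factors were 0.516 to 0.547 at hour 3 and 1.26 to 1.32 at day 1, so the rank of hour 3 above day 1 depended on the scale. For Mcm6 the log2 fold changes were 1.59 (SE 0.27, adjusted p = 3.84e-05) for day 1 against hour 0 and -0.74 (SE 0.26, adjusted p = 0.0434) for day 2 against day 1. Those of Mcm6 in the other set were -1.0 (SE 0.26, adjusted p = 0.0032) for day 8 against hour 3 and -1.22 (SE 0.27, adjusted p = 0.00629) for day 23 against day 8. Against hour 0, the level at hour 3 was higher by 2.80 (SE 0.28, adjusted p = 2.42e-09) across the sets, and by 1.64 (adjusted p = 1.15e-05) with library totals as the scale. The difference between hour 3 and day 8 was -0.21 (adjusted p = 0.654) on that scale. Mcm6 did not pass for day 2 against day 1 without any 1 of replicates 13, 15, 16, 17 and 18 (-0.84 to -0.53).

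Mcm3 stood at 13.8, 17.0 and 16.0 CPM at hour 0, 61.1, 26.6 and 48.2 CPM at day 1 and 23.7, 26 and 32.4 CPM at day 2, and at 19.7, 19.0 and 22 CPM at hour 3, 35.9, 31.7 and 27.7 CPM at day 8 and 21.6, 9.77 and 11.6 CPM at day 23. Its libraries of day 1 were above those of hour 0, with replicate 14 the lowest of the 3. For Mcm3 the log2 fold changes were 1.54 (SE 0.27, adjusted p = 5.67e-05) for day 1 against hour 0, 0.82 (SE 0.27, adjusted p = 0.0382) for day 2 against hour 0 and -0.72 (SE 0.26, adjusted p = 0.0465) for day 2 against day 1. Those of Mcm3 in the other set were 0.65 (SE 0.27, adjusted p = 0.0654) for day 8 against hour 3 and -1.16 (SE 0.28, adjusted p = 0.0106) for day 23 against day 8. The calls for day 2 did not pass without any 1 of replicates 10, 11, 12, 17 and 18 (0.67 to 0.87) against hour 0 and without any 1 of replicates 13, 15, 16, 17 and 18 (-0.87 to -0.46) against day 1, nor that for day 23 without replicate 8 (-0.93). Mcm7 stood at 12.8, 22.2 and 12.2 CPM at hour 0, 27.0, 23.8 and 31.9 CPM at day 1 and 15.6, 23.0 and 25.9 CPM at day 2, and at 8.60, 9.62 and 6.56 CPM at hour 3, 33.2, 36.0 and 28.4 CPM at day 8 and 16.6, 11.1 and 14.2 CPM at day 23. It was low at hour 3 and high at day 8 with no overlap. For Mcm7 the log2 fold change was 0.82 (SE 0.25, adjusted p = 0.0193) for day 1 against hour 0. Those of Mcm7 in the other set were 1.97 (SE 0.27, adjusted p = 7.39e-07) for day 8 against hour 3 and -1.23 (SE 0.26, adjusted p = 0.00448) for day 23 against day 8. Mcm7 did not pass for day 1 against hour 0 without any 1 of replicates 10, 12 and 15 (0.66 to 0.70). Mcm4 stood apart from the other subunits, at 33.5, 28.1 and 30.0 CPM at hour 0, 42.8, 44.2 and 48.3 CPM at hour 3 and 44.8, 42.7 and 43.3 CPM at day 8, and no comparison within a set passed, with -0.12 (SE 0.25, adjusted p = 0.787) for day 1 against hour 0, -0.40 (SE 0.26, adjusted p = 0.243) for day 2 against day 1, -0.05 (SE 0.25, adjusted p = 1) for day 8 against hour 3 and -0.45 (SE 0.25, adjusted p = 0.392) for day 23 against day 8. Of the exon length of Mcm7, 12.6% overlaps another gene.

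The proteins Mcm2 to Mcm7 act as a ring with 1 copy of each, so their transcripts can be set side by side once divided by exon length. At hour 0 the mean levels were 1.76 for Mcm2, 4.16 for Mcm3, 8.51 for Mcm4, 1.45 for Mcm5, 3.61 for Mcm6 and 3.55 for Mcm7, in CPM per kb. At hour 3 they were 0.803 for Mcm2, 5.39 for Mcm3, 12.6 for Mcm4, 0.653 for Mcm5, 25.2 for Mcm6 and 1.87 for Mcm7. At day 8 they were 5.27 for Mcm2, 8.47 for Mcm3, 12.1 for Mcm4, 4.84 for Mcm5, 12.6 for Mcm6 and 7.34 for Mcm7. Of these 3 times the range among the 6 subunits was widest at hour 3, where Mcm6 led and Mcm5 and Mcm2 were lowest.

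Pcna, the sliding clamp of the replicative polymerases and also a p53 target (chr2:132249162-132253314, minus strand), stood at 15.8, 15.4 and 27.8 CPM at hour 0, 38.6, 24.0 and 37.0 CPM at day 1 and 23.1, 27.9 and 19.8 CPM at day 2. Pcna in the other set stood at 63.5, 44 and 56.5 CPM at hour 3, 36.6, 38.8 and 34.6 CPM at day 8 and 27.1, 18.1 and 17.3 CPM at day 23. Like Mcm6 it was highest in the libraries of hour 3 on the TMM scale, a rank that likewise depended on the scale. For Pcna the log2 fold changes were 0.75 (SE 0.24, adjusted p = 0.023) for day 1 against hour 0 and -0.49 (SE 0.24, adjusted p = 0.13) for day 2 against day 1. Those of Pcna in the other set were -0.58 (SE 0.24, adjusted p = 0.0672) for day 8 against hour 3 and -0.82 (SE 0.24, adjusted p = 0.0461) for day 23 against day 8. The call at day 1 did not pass without any 1 of replicates 10, 11, 13 and 15 (0.60 to 0.67), nor that at day 23 without any 1 of replicates 1, 2, 3, 8 and 9 (-0.86 to -0.72). Against hour 0, Pcna at hour 3 was higher by 1.47 (SE 0.24, adjusted p = 1.44e-05) with TMM, and 0.30 (adjusted p = 0.255) with library totals. Cdt1, which loads the helicase at origins (chr8:122568015-122573554, plus strand), stood at 3.97, 0.566 and 3.06 CPM at hour 0, 13.6, 3.48 and 8.67 CPM at day 1 and 7.51, 7.99 and 8.97 CPM at day 2. Cdt1 in the other set stood at 2.48, 4.48 and 7.98 CPM at hour 3, 8.84, 11.5 and 8.91 CPM at day 8 and 2.85, 4.97 and 1.18 CPM at day 23. Replicate 14 of day 1 lay within the range of hour 0. For Cdt1 the log2 fold changes were 1.74 (SE 0.53, adjusted p = 0.0174) for day 1 against hour 0, 1.67 (SE 0.54, adjusted p = 0.0335) for day 2 against hour 0 and -0.07 (SE 0.51, adjusted p = 0.918) for day 2 against day 1. Those of Cdt1 in the other set were 0.97 (SE 0.52, adjusted p = 0.181) for day 8 against hour 3 and -1.61 (SE 0.54, adjusted p = 0.0816) for day 23 against day 8. The call at day 1 did not pass without any 1 of replicates 11 and 13 (1.25 to 1.29), nor that at day 2 against hour 0 without any 1 of replicates 11, 12, 16, 17 and 18 (1.20 to 1.81).

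Gins2, a subunit of the GINS complex that joins the helicase (chr8:120578633-120589304, minus strand), stood at 3.29, 1.59 and 2.40 CPM at hour 0, 3.30, 1.74 and 5.91 CPM at day 1 and 6.16, 7.16 and 8.97 CPM at day 2. Gins2 in the other set stood at 1.04, 0.923 and 1.54 CPM at hour 3, 6.17, 6.09 and 4.34 CPM at day 8 and 3.57, 1.22 and 0.473 CPM at day 23. For Gins2 the log2 fold changes were 0.59 (SE 0.54, adjusted p = 0.481) for day 1 against hour 0, 1.61 (SE 0.55, adjusted p = 0.0442) for day 2 against hour 0 and 1.02 (SE 0.53, adjusted p = 0.151) for day 2 against day 1. Those of Gins2 in the other set were 2.23 (SE 0.58, adjusted p = 0.00333) for day 8 against hour 3 and -1.65 (SE 0.57, adjusted p = 0.0962) for day 23 against day 8. The call for day 2 against hour 0 did not pass without any 1 of replicates 10, 11, 12, 16, 17 and 18 (1.37 to 1.87). Another gene, Gse1, overlaps 67.3% of the Gins2 exon length, so the counts of Gins2 are uncertain. Pola1, the catalytic subunit of the polymerase that primes new strands, had no call within either set: -0.17 (SE 0.24, adjusted p = 0.675) for day 1 against hour 0, 0.34 (SE 0.24, adjusted p = 0.283) for day 2 against day 1, 0.56 (SE 0.24, adjusted p = 0.083) for day 8 against hour 3 and 0.06 (SE 0.24, adjusted p = 1) for day 23 against day 8. Its libraries lay between 11.1 and 25.8 CPM throughout.

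The enzymes that supply deoxynucleotides did not move as one. Rrm2, the regulated subunit of ribonucleotide reductase (chr12:24708241-24714146, plus strand), stood at 1.16, 0.680 and 1.16 CPM at hour 0, 2.01, 1.83 and 2.62 CPM at day 1 and 5.56, 3.94 and 6.99 CPM at day 2. Rrm2 in the other set stood at 1.56, 2.77 and 2.32 CPM at hour 3, 13.3, 17.9 and 12.6 CPM at day 8 and 1.07, 1.83 and 4.50 CPM at day 23. Each group from hour 0 to day 2 lay above the one before, and day 8 was highest. For Rrm2 the log2 fold changes were 1.09 (SE 0.49, adjusted p = 0.117) for day 1 against hour 0, 2.43 (SE 0.49, adjusted p = 0.000517) for day 2 against hour 0 and 1.35 (SE 0.46, adjusted p = 0.0329) for day 2 against day 1. Those of Rrm2 in the other set were 2.71 (SE 0.47, adjusted p = 3.04e-05) for day 8 against hour 3 and -2.62 (SE 0.48, adjusted p = 0.00112) for day 23 against day 8. Rrm2 did not pass for day 2 against day 1 without any 1 of replicates 13, 14, 15, 16 and 18 (1.12 to 1.5). Rrm1, its constant partner, stood at 18.2, 18.7 and 15.1 CPM at hour 0, 20.1, 25.0 and 21.6 CPM at day 1 and 22.2, 21.9 and 22.2 CPM at day 2, and at 30.6, 25.3 and 26.3 CPM at hour 3, 34.4, 45.1 and 42.3 CPM at day 8 and 23.9, 20.0 and 15.9 CPM at day 23. For Rrm1 the log2 fold changes were 0.36 (SE 0.20, adjusted p = 0.219) for day 1 against hour 0 and 0.00 (SE 0.20, adjusted p = 0.987) for day 2 against day 1. Those of Rrm1 in the other set were 0.57 (SE 0.20, adjusted p = 0.0302) for day 8 against hour 3 and -1.02 (SE 0.21, adjusted p = 0.00282) for day 23 against day 8. The rise at day 8 did not pass without any 1 of replicates 2, 3, 5 and 6 (0.42 to 0.54). At hour 3 against hour 0 it was 0.66 (SE 0.20, adjusted p = 0.00861) with TMM, a rise that did not pass without replicate 4 (0.54), and -0.52 (adjusted p = 0.0293) with library totals, so that its direction there depended on the scale.

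Tk1, the thymidine kinase of the salvage pathway (chr11:117815526-117826092, minus strand), stood at 5.80, 5.78 and 5.87 CPM at hour 0, 2.42, 2.09 and 0.748 CPM at day 1 and 6.76, 7.16 and 9.49 CPM at day 2. Tk1 in the other set stood at 0, 0.264 and 0.901 CPM at hour 3, 8.09, 10.7 and 4.81 CPM at day 8 and 0.892, 1.92 and 0.473 CPM at day 23. All its libraries of day 1 lay below those of hour 0. For Tk1 the log2 fold changes were -1.73 (SE 0.56, adjusted p = 0.0239) for day 1 against hour 0 and 2.16 (SE 0.56, adjusted p = 0.00703) for day 2 against day 1. Those of Tk1 in the other set were 4.29 (SE 0.68, adjusted p = 9.06e-06) for day 8 against hour 3 and -2.70 (SE 0.60, adjusted p = 0.0066) for day 23 against day 8. Tk1 did not pass for day 1 against hour 0 without replicate 15 (-1.36). Tyms, thymidylate synthase (chr5:30058202-30073617, minus strand), stood at 3.10, 5.78 and 4.88 CPM at hour 0, 9.58, 4.70 and 4.49 CPM at day 1 and 6.76, 7.16 and 7.20 CPM at day 2. Tyms in the other set stood at 5.21, 4.22 and 4.38 CPM at hour 3, 7.17, 8.93 and 7.83 CPM at day 8 and 1.61, 4.19 and 7.81 CPM at day 23. Neighbouring groups mostly overlapped, and no comparison passed: 0.45 (SE 0.42, adjusted p = 0.493) for day 1 against hour 0, 0.17 (SE 0.42, adjusted p = 0.77) for day 2 against day 1, 0.79 (SE 0.43, adjusted p = 0.185) for day 8 against hour 3 and -0.84 (SE 0.44, adjusted p = 0.332) for day 23 against day 8.

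The 4 regulators of the G1/S step each had a course of their own. Ccnd1, the cyclin D1 that growth signals induce (chr7:144929931-144939925, minus strand), stood at 12.4, 19.5 and 18.9 CPM at hour 0, 32.3, 16.2 and 44.6 CPM at day 1 and 22.2, 19.1 and 30.0 CPM at day 2. Ccnd1 in the other set stood at 15.5, 13.7 and 18.0 CPM at hour 3, 197, 220.4 and 180.3 CPM at day 8 and 55.8, 58.8 and 68.2 CPM at day 23. Day 8 stood far above all other times, and day 23 above all but day 8. For Ccnd1 the log2 fold changes were 0.88 (SE 0.25, adjusted p = 0.0106) for day 1 against hour 0 and -0.38 (SE 0.25, adjusted p = 0.246) for day 2 against day 1. Those of Ccnd1 in the other set were 3.66 (SE 0.27, adjusted p = 7.36e-12) for day 8 against hour 3 and -1.71 (SE 0.25, adjusted p = 9.63e-05) for day 23 against day 8. Ccnd1 did not pass for day 1 against hour 0 without any 1 of replicates 10 and 15 (0.52 to 0.70). Of its exon length, 23.4% overlaps another gene. Ccne1, the cyclin E1 that starts S phase (chr7:38097984-38107534, minus strand), stood at 0.193, 1.36 and 0.579 CPM at hour 0, 7.33, 5.05 and 3.59 CPM at day 1 and 2.40, 5.96 and 5.63 CPM at day 2. Ccne1 in the other set stood at 1.17, 1.05 and 2.32 CPM at hour 3, 1.67, 2.19 and 2.09 CPM at day 8 and 0, 1.83 and 0 CPM at day 23. All libraries of day 1 and day 2 lay above those of hour 0. For Ccne1 the log2 fold changes were 2.91 (SE 0.81, adjusted p = 0.00855) for day 1 against hour 0, 2.73 (SE 0.81, adjusted p = 0.0195) for day 2 against hour 0 and -0.18 (SE 0.72, adjusted p = 0.858) for day 2 against day 1. Those of Ccne1 in the other set were 0.39 (SE 0.77, adjusted p = 0.89) for day 8 against hour 3 and -1.37 (SE 0.81, adjusted p = 0.428) for day 23 against day 8. Ccne1 did not pass for day 2 against hour 0 without any 1 of replicates 10, 12, 17 and 18 (2.28 to 2.60). The GC-matched background was 160% of the Ccne1 counts at hour 0, so that level cannot be told from background.

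Ccne2, cyclin E2 (chr4:11191351-11204779, plus strand), stood at 0.580, 0.680 and 0.579 CPM at hour 0, 1.69, 3.31 and 2.54 CPM at day 1 and 2.25, 2.27 and 3.13 CPM at day 2. Ccne2 in the other set stood at 0.130, 1.98 and 0.643 CPM at hour 3, 1.5, 1.46 and 0.620 CPM at day 8 and 0, 0.436 and 0 CPM at day 23. Its libraries of day 1 and day 2 were also all above hour 0, but at these low counts no comparison passed: 2.02 (SE 0.87, adjusted p = 0.0977) for day 1 against hour 0, 2.04 (SE 0.87, adjusted p = 0.134) for day 2 against hour 0, 0.02 (SE 0.81, adjusted p = 0.985) for day 2 against day 1, 0.38 (SE 0.86, adjusted p = 0.936) for day 8 against hour 3 and -2.51 (SE 1.01, adjusted p = 0.166) for day 23 against day 8. Another gene, Ints8, overlaps 17.4% of its exon length. E2f1, a transcription factor of replication genes (chr2:154559407-154569892, minus strand), stood at 5.61, 6.00 and 3.89 CPM at hour 0, 8.46, 4.00 and 7.40 CPM at day 1 and 4.81, 7.51 and 8.66 CPM at day 2. E2f1 in the other set stood at 1.43, 3.16 and 3.09 CPM at hour 3, 5.83, 5.60 and 5.74 CPM at day 8 and 6.60, 3.58 and 2.37 CPM at day 23. Hour 0, day 1 and day 2 overlapped. For E2f1 the log2 fold changes were 0.36 (SE 0.42, adjusted p = 0.59) for day 1 against hour 0 and 0.08 (SE 0.42, adjusted p = 0.89) for day 2 against day 1. Those of E2f1 in the other set were 1.16 (SE 0.44, adjusted p = 0.0478) for day 8 against hour 3 and -0.45 (SE 0.43, adjusted p = 0.729) for day 23 against day 8. E2f1 did not pass for day 8 against hour 3 without any 1 of replicates 1, 2, 3, 4, 5 and 6 (0.89 to 1.35). After the background subtraction it was 1.17 (adjusted p = 0.0922). The estimated background was 1.48% of the E2f1 counts at hour 3 and 0.624% at day 8, so that value cannot check for background. Counted over the 4, 2 (Ccnd1 and Ccne1) rose at day 1, against 9.67% of all genes. None changed between day 1 and day 2, where 12.0% of all genes rose and 11.2% fell. Between hour 3 and day 8, 2 (Ccnd1 and E2f1) rose, against 16.5%, and 1 (Ccnd1) fell by day 23, against 3.08%. With so few genes, these counts are not read as a difference from all genes.

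Cdkn1a, the kinase inhibitor p21 (chr17:29090976-29100727, plus strand), was higher at each later time than at hour 0. It stood at 6.77, 8.04 and 10.2 CPM at hour 0, 196, 67.3 and 182 CPM at day 1 and 83.4, 69.6 and 52.1 CPM at day 2. Cdkn1a in the other set stood at 82.4, 66.0 and 78 CPM at hour 3, 35.7, 29.3 and 27.6 CPM at day 8 and 33.2, 24.2 and 21.8 CPM at day 23. Every library after hour 0 lay above every library of hour 0, and at day 1 replicates 13 and 15 stood far above replicate 14. For Cdkn1a the log2 fold changes were 4.15 (SE 0.30, adjusted p = 8.65e-12) for day 1 against hour 0, 3.03 (SE 0.29, adjusted p = 4.97e-09) for day 2 against hour 0 and -1.12 (SE 0.26, adjusted p = 0.00293) for day 2 against day 1. Those of Cdkn1a in the other set were -1.29 (SE 0.27, adjusted p = 0.000276) for day 8 against hour 3 and -0.23 (SE 0.27, adjusted p = 0.821) for day 23 against day 8. Day 1 and day 2 overlapped through replicate 14. On the scale of library totals the change from hour 3 to day 8 was -0.50 (adjusted p = 0.152), and after the background subtraction that from day 1 to day 2 was -0.76 (adjusted p = 0.0577). Across the sets, Cdkn1a was higher than at hour 0 by 3.17 (SE 0.29, adjusted p = 4.87e-10) at hour 3, 1.88 (SE 0.28, adjusted p = 1.91e-05) at day 8 and 1.66 (SE 0.29, adjusted p = 0.000238) at day 23. Day 1 replicate 14 was thus the lowest of its group for Cdkn1a, Psrc1, Mcm2, Mcm3, Mcm4, Mcm5, Mcm6, Mcm7, Pcna, Cdt1, Gins2, Ccnd1 and E2f1. Leaving it out, the log2 fold change at day 1 was 4.50 for Cdkn1a, 1.90 for Mcm6 and 1.52 for Mcm2.

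**Figure D4:**
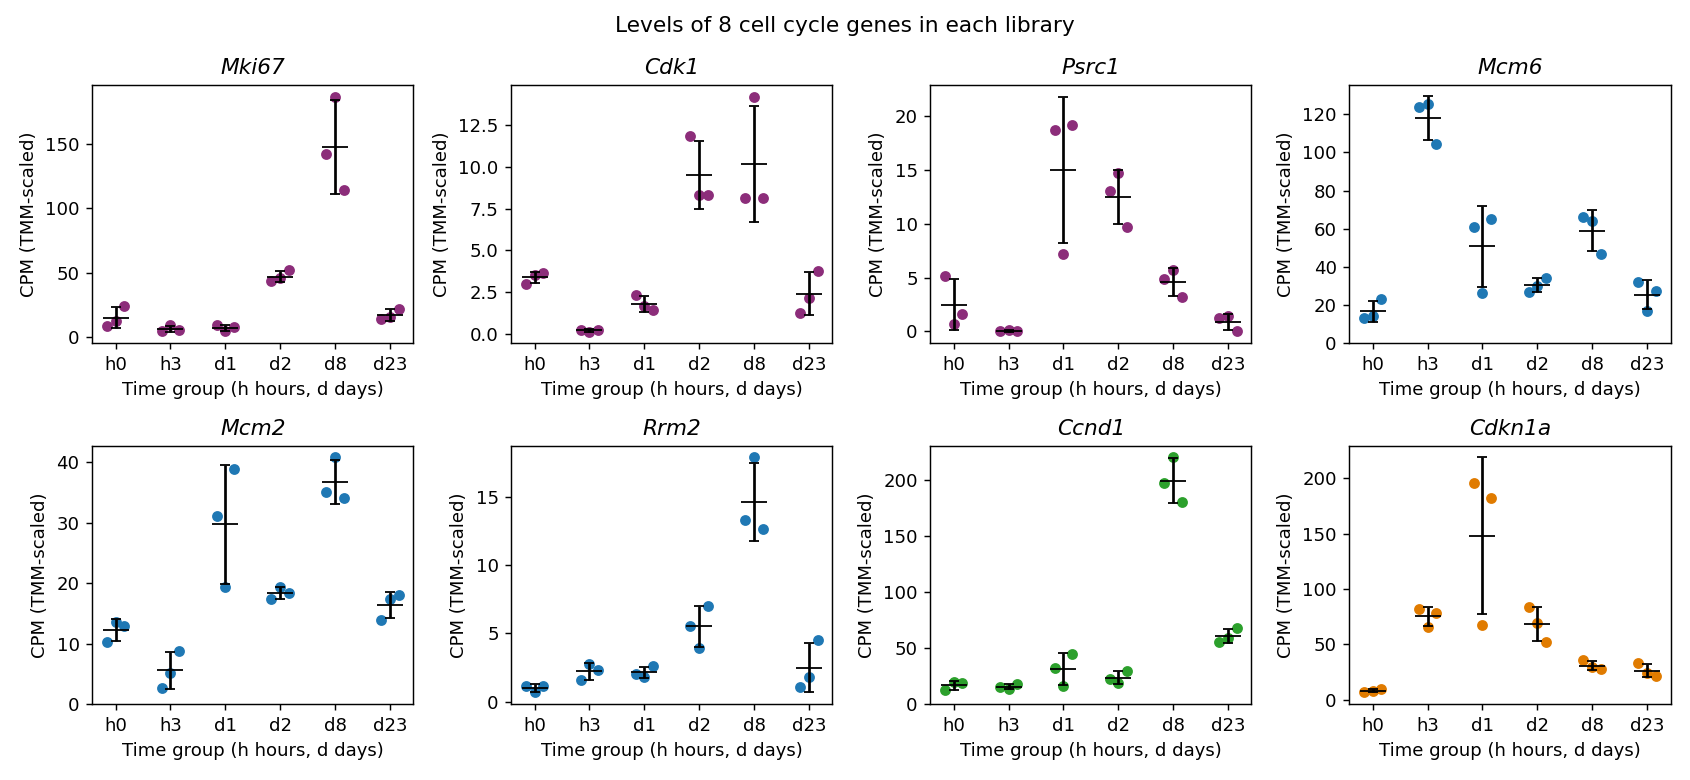
CPM of 8 genes in each library (points) by time group (h for hours, d for days), with the mean and the SD (n = 3) in black. On this TMM scale, Mki67 and Ccnd1 are highest at day 8, Mcm6 at hour 3, and Psrc1 and Cdkn1a at day 1.

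Set against each other, the medians of the mitosis and the replication genes lay on opposite sides of 0 at day 1. From day 1 to day 2 the mitosis median was 2.38, and the replication median lay near 0, at -0.04. That is smaller than the shifts of 0.27 with library totals and 0.21 with DESeq2 size factors, so its sign depended on the scale. The median log2 fold change of the mitosis genes less that of the replication genes was -1.97 from hour 0 to day 1, 2.42 from day 1 to day 2 and 0.70 from hour 0 to day 2. It was 3.50 from hour 3 to day 8 and -1.95 from day 8 to day 23. The members were chosen with results known, so the differences are a description and carry no test. In each library of day 1 the summed mitosis level was 0.232, 0.446 and 0.210 of the replication level, and at day 2 it was 1.37, 1.34 and 1.39. At hour 0 it was 0.678, 1.01 and 0.715. The 3 groups did not overlap. Less the GC-matched background, the ratio was 0.497 to 0.831 at hour 0, 0.174 to 0.319 at day 1 and 1.23 to 1.30 at day 2, and the order of the groups was the same. In the other set the ratio was 0.119 to 0.132 at hour 3, 1.24 to 1.64 at day 8 and 0.271 to 0.469 at day 23.

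Genes of the same pathways outside the 45 were counted from lists of known function. Of 42 further mitosis genes, 1 rose and 10 fell at day 1 against hour 0, 25 rose and 0 fell at day 2 against day 1, 35 rose and 0 fell at day 8 against hour 3, and 0 rose and 28 fell at day 23 against day 8. Over all genes, 9.67% rose and 12.8% fell at day 1, 12.0% and 11.2% at day 2 against day 1, 16.5% and 14.1% at day 8 against hour 3, and 2.25% and 3.08% at day 23 against day 8. These shares stand beside all lists that follow. The medians of the 42 were -0.77, 2.02, 3.97 and -2.39 on the log2 scale. At day 1 the kinetochore gene Nuf2 fell, at -2.60 (SE 0.56, adjusted p = 0.000807), as did Kif2c, at -2.03 (SE 0.65, adjusted p = 0.023), and Dlgap5, at -2.02 (SE 0.67, adjusted p = 0.0275), while Cks1b, a subunit of cyclin-dependent kinase complexes, rose by 1.27 (SE 0.44, adjusted p = 0.0369). At day 2 the widest rises were those of Dlgap5 at 3.70, Ckap2l at 3.64 and Kif4 at 3.38. At hour 3 no count of Kif22, Spc24 or Kif18b was found, and by day 8 these stood at least 51.8-fold, 44.1-fold and 36.7-fold higher. By day 23 Kif4, a chromosome motor, had fallen, at -4.08 (SE 0.53, adjusted p = 2.69e-05), as had Melk, at -3.83 (SE 0.83, adjusted p = 0.00499).

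Of 36 further replication genes, 5 rose and 0 fell at day 1, 5 rose and 0 fell at day 2 against day 1, 26 rose and 0 fell at day 8 against hour 3, and 0 rose and 8 fell at day 23, and the medians were 0.37, 0.14, 1.95 and -0.78. Where edgeR called no gene of these lists in a direction, at most 2 of a list had an unadjusted p under 0.05 there, and DESeq2 called 0. At day 1 Dnmt1, the maintenance DNA methyltransferase, rose by 1.21 (SE 0.17, adjusted p = 2.25e-06), Dut, which removes dUTP, by 1.11 (SE 0.31, adjusted p = 0.00968) and Pold1, a replicative polymerase subunit, by 0.99 (SE 0.33, adjusted p = 0.0296). By day 8 Pole had risen by 4.23 (SE 0.53, adjusted p = 2.1e-07) and Uhrf1 by 4.06 (SE 0.40, adjusted p = 2.32e-09). So the rise of replication genes at day 1 covered 7 of the 14 listed first and 5 of 36 others. The second share lies near the 9.67% of all genes that rose. At hour 3 against hour 0, across the sets, the wider list did not follow the 14. Its median was -1.26, where that of the 14 was 0.19 and that of all genes -1.41. The sum of the 36 lay at 229 to 244 CPM at hour 3 and 351 to 435 CPM at hour 0.

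Replication-dependent histones, which are made in S phase and whose transcripts mostly lack poly(A) tails, were counted next. Of 15, 0 rose and 3 fell at day 1, a share of falls near the 12.8% of all genes, 8 rose and 0 fell at day 2 against day 1, 13 rose and 0 fell at day 8 against hour 3, and 0 rose and 5 fell at day 23. Their sum lay at 176 to 191 CPM at hour 0 and 159 to 191 CPM at day 2, which overlap, and the median of the 15 for day 23 against hour 0 was 1.02, above 0 where that of the 26 mitosis genes was -1.31. The linker histone Hist1h1b fell at day 1, at -2.63 (SE 0.61, adjusted p = 0.00149), and rose by 4.82 (SE 0.61, adjusted p = 2.2e-07) at day 8, and Hist1h1a rose by 4.47 (SE 0.63, adjusted p = 1.2e-05) at day 2. Histone copies are near-identical, so how reads were shared among them is uncertain.

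Of 22 other G1/S regulators, 4 rose and 2 fell at day 1, where 9.67% of all genes rose and 12.8% fell. Cdkn2b, the inhibitor p15, rose by 3.09 (SE 0.48, adjusted p = 1.13e-05), Myc by 2.26 (SE 0.23, adjusted p = 7.06e-09) and Ccnd3 by 0.75 (SE 0.16, adjusted p = 0.00055). The repressor Rbl2 fell, at -1.04 (SE 0.17, adjusted p = 1.41e-05), as did the inhibitor Cdkn1b, at -0.75 (SE 0.19, adjusted p = 0.00473). At day 2 against day 1, 3 rose and 5 fell, with Cdkn2c, E2f7 and E2f8 up by 2.18, 2.05 and 1.85, and Cdkn1c, the inhibitor p57, down at -1.82. At day 8 against hour 3, 10 rose and 6 fell, and Myc, an immediate early gene, fell, at -3.90 (SE 0.24, adjusted p = 2.04e-13).

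Of 16 p53 targets, 11 rose and 0 fell at day 1, with a median of 1.44. Aen, an apoptosis nuclease, rose by 2.96 (SE 0.26, adjusted p = 2.94e-10), Sesn2 by 2.72 (SE 0.30, adjusted p = 2.44e-08) and Mdm2, which degrades p53, by 2.71 (SE 0.28, adjusted p = 1.17e-08). At day 2 against day 1, 1 rose and 9 fell, with a median of -1.05: Eda2r at -1.99, Ccng1 at -1.64 and Sesn2 at -1.60 were lower. At day 8 against hour 3 they were mixed, as 6 rose and 5 fell.

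Markers of cells other than fibroblasts moved with the same groups, and their part in the cell cycle results was not tested. At day 8 against hour 3 the counts were 7 of 13 up and none down for myeloid markers, and their sum lay at 58.0 to 92.7 CPM at hour 3 and 191 to 249 CPM at day 8. Of 9 endothelial markers 5 rose and 1 fell, and their sum lay at 27.6 to 54.3 CPM at hour 3 and 138 to 170.3 CPM at day 8. Of 11 T and NK cell markers 8 rose, and their sum lay at 1.42 to 4.75 CPM at hour 3 and 24.8 to 43.1 CPM at day 8, with Cd3e, Cd3d and Klrb1c at 0 at hour 3. Of 6 erythroid markers 3 rose, and their sum lay at 5.28 to 6.65 CPM at hour 3 and 29.2 to 75.6 CPM at day 8. Of 11 epithelial markers 8 rose. Their sum, most of it Mucl2, lay at 69149 to 112247 CPM at hour 3 and 45227 to 135198 CPM at day 8. Of 8 mural markers 5 rose and 2 fell. Neutrophil markers went the other way: of 7, 3 fell and none rose, and their sum lay at 33.5 to 43.0 CPM at hour 3 and 1.14 to 2.33 CPM at day 8. Of 6 glial markers 1 rose and 1 fell, and their sum lay at 62.9 to 70.8 CPM at hour 3 and 105 to 151 CPM at day 8. Of 10 B and plasma cell markers 1 rose and 1 fell, and their sum lay at 2.83 to 9.09 CPM at hour 3 and 12.2 to 17.3 CPM at day 8. Over all genes 16.5% rose and 14.1% fell. Of the 9 fibroblast markers 7 fell, and their sum lay at 43076 to 43951 CPM at hour 3 and 25862 to 29445 CPM at day 8.

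Between day 1 and day 2, the step at which 21 mitosis genes rose, 5 of 6 glial markers rose, and their sum lay at 9.27 to 13.1 CPM at day 1 and 129.8 to 175 CPM at day 2. Of 8 mural markers 7 rose, and their sum lay at 69.9 to 105 CPM at day 1 and 209 to 322 CPM at day 2. Of 13 myeloid markers 3 rose, and their sum lay at 22.5 to 35.4 CPM at day 1 and 55.8 to 63.3 CPM at day 2. In that step 2 of 11 T and NK cell markers, 3 of 10 B and plasma cell markers, 2 of 7 neutrophil markers and 2 of 9 endothelial markers rose, against 12.0% of all genes, and 5 of 11 epithelial markers fell, against 11.2%. With so few markers, the counts for T and NK, neutrophil and endothelial cells are not read as a difference from all genes. Of the fibroblast markers 4 rose and 2 fell, and their sum lay at 11069 to 15064 CPM at day 1 and 14869 to 22762 CPM at day 2. At day 1 against hour 0, where 11 of 26 mitosis genes and 12.8% of all genes fell, 7 of 9 fibroblast, 7 of 8 mural, 7 of 11 epithelial and 6 of 6 glial markers fell. From day 8 to day 23, 3 of 13 myeloid, 3 of 9 endothelial and 7 of 11 epithelial markers fell, against 3.08% of all genes, and edgeR called none of the fibroblast markers, where 2 were higher at an unadjusted p under 0.05 and DESeq2 called 1.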

How the data were processed

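RNA from sorted gp38+ stromal cells was sequenced in 18 libraries, 3 per group. The deposited files hold raw read counts per Ensembl gene for each library, made by the authors with FastQC, STAR and Subread on mm10, and DESeq2 is also named, per the submitters' processing notes. The annotation, the strand setting and the treatment of reads with several matches are not given in the sources used here. Totals were 4398234 to 15234431 counts. Symbols, positions and exon lengths came from GENCODE release M21 (55141 of 55401 identifiers matched).

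Counts were fitted with edgeR 4.0.16 in R 4.3.3: low counts removed by filterByExpr (10 per library, 15 in all), TMM scaling, 1 quasi-likelihood fit over all 6 groups, and Benjamini-Hochberg adjustment over 27525 genes at 0.05. SE is the log2 fold change divided by the square root of F. Where a group had 1 to 3 counts the ratio is given with an exact 95% counting interval, and where it had none, a bound against 3 counts over the group. These cover counting error only. The fit was tested on simulated data.

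The 45 members, their roles, the pathway and marker lists and the tests were chosen with earlier results of these data known. Values in every library are given for 24 preset genes, and in each comparison for up to 3 more per role and direction by size among those past the threshold. The library titles give a replicate number and name no mouse, and each library was taken as its own mouse. Alternatives were DESeq2 1.42.0, its size factors, library totals, other filters, 2 background subtractions, fits on fewer libraries and leaving out each library. The GC-matched subtraction (10 bins, 12200 genes with at most 9 counts in all at hour 3, day 8 and day 23) was added after seeing the data. RefSeq supplied the promoters.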

Additional observations from a re-analysis of the deposited data

How the results depend on the processing

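Of 355 single-gene results past the threshold, 343 stayed past it with DESeq2, 345 with its size factors in edgeR, 328 with library totals, 333 with the receptor-gene background subtracted, 282 with the GC-matched background subtracted and 301 with only the groups compared in the fit. With library totals, Rrm1 (-0.52), Dnmt1 (-0.65) and Hist1h4d (-0.25) turned direction for hour 3 against hour 0, and Dnmt1 (-0.0002) did so for day 23 against hour 0. With the GC-matched subtraction E2f7 turned at day 23 against hour 0 (0.20).

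Counts over the 45 genes moved as follows. Where no share of all genes is given, a general gain or loss of calls cannot be told apart. At hour 3 against hour 0, library totals gave 2 higher, where 5.41% of all genes were, and 38 lower, where 70.8% were. At day 1 against hour 0, the fit on only these groups gave 4 lower. At day 2 against hour 0, DESeq2 gave 30 higher, and only these groups 1 lower. At day 23 against hour 0 the GC-matched subtraction gave 4 higher and 2 lower, where 4.41% of all genes were lower. Library totals gave 19 lower, where 39.7% of all genes were, the receptor-gene subtraction 5 lower and only these groups 3 lower. At day 2 against day 1 the lower count was 1 with DESeq2, with its size factors, with library totals, with the stricter filter and with the receptor-gene subtraction, 0 with the GC-matched subtraction, 7 with no filter and 5 with only these groups. At day 8 against hour 3 library totals gave 0 lower. The median of mitosis less that of replication genes was -2.54 for hour 3 against hour 0 with only these groups, and with the GC-matched subtraction -2.35 for day 1, 0.96 for day 2, 1.01 for day 8 and -1.15 for day 23 against hour 0, and 3.06 for day 2 against day 1. The cause of these moves was not tested.

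Leaving out 1 library at a time, the members called higher numbered 3 to 4 at hour 3, 7 to 11 at day 1, 8 to 15 at day 2, 21 to 31 at day 8 and 2 to 4 at day 23 against hour 0, 20 to 23 at day 2 against day 1 and 31 to 33 at day 8 against hour 3. Those called lower numbered 20 to 23 at hour 3, 7 to 11 at day 1 and 8 to 10 at day 23 against hour 0, 1 to 7 at day 2 against day 1, and 24 to 34 at day 23 against day 8. At day 1 the count was 7 higher without replicate 10 or 15 and 7 lower without replicate 15. At day 23 against hour 0 it was 4 higher without replicate 7. At day 2 against day 1 it was 1 lower without replicate 13, 15, 16, 17 or 18, and 7 without replicate 14. The changes for day 2 against hour 0 stand beside that result. Shares of all genes called without each library are not given here. The median of mitosis less that of replication genes ran from -2.60 to -2.30 at hour 3, -2.11 to -1.65 at day 1, 0.59 to 0.78 at day 2, 0.36 to 0.68 at day 8 and -1.72 to -1.11 at day 23 against hour 0, 2.27 to 2.61 at day 2 against day 1, 3.07 to 3.59 at day 8 against hour 3 and -2.15 to -1.49 at day 23 against day 8. Its direction held in all of these.

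No paired analysis was possible because the groups share no replicate number. Depth was lowest in replicates 16 to 18 of day 2 and 7 and 9 of day 23, from 4398234 to 6313619 counts, and most genes below 2 CPM there rest on few counts.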
